A study of Mus musculus with 24 samples.

Results

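The genes described here are 8 regulators of mRNA decay and stability, namely Zfp36, Zfp36l1, Zfp36l2, Zc3h12a, Zc3h12c, Rc3h1, Elavl1 and N4bp1, of 21951 annotated mouse protein-coding genes. Their open chromatin was mapped by ATAC-seq, an assay that reads where the Tn5 transposase can cut, in bone marrow-derived macrophages (BMDM) of 2 mouse strains with and without lipopolysaccharide (LPS). Every ATAC-seq peak was assigned to the gene with the nearest transcription start site (TSS) within 100 kb, and 93 of 44999 peak regions in the series lay at these 8 genes. The gene family was picked with peak numbers of these libraries in view. Zfp36l2 stood out for fewer and N4bp1 for more peaks with LPS, so their LPS values, between LPS treatments and between strains in the LPS response included, are given as a description with no test.

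The BMDM came from male mice at postnatal day 28, 4 of the strain BTBR T+ Itpr3tf/J (BTBR) and 4 C57BL6/J. BTBR is an inbred strain used as a model of autism-like behaviour. Marrow was cultured for 7 days, and the cells of every animal were divided over 3 treatments. Media cultures had medium throughout, LPSx1 cultures had medium first and then 100 ng/ml LPS for 24 hours, and LPSx2 cultures had 100 ng/ml LPS for 4 hours, a wash, about 20 hours in medium and 100 ng/ml LPS for 24 hours again. BTBR gave 4 media, 4 LPSx1 and 4 LPSx2 libraries, and C57BL6/J gave 3, 4 and 3 after the lists of animal 6 for media and LPSx2, with 299 and 1879 peaks, had been left out.

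These proteins set how long inflammatory transcripts last. The ZFP36 proteins bind AU-rich elements and recruit the CCR4-NOT deadenylase, the nucleases Regnase-1 and Regnase-3 (Zc3h12a and Zc3h12c) cleave mRNA, and Roquin-1 (Rc3h1) destabilises mRNA through stem-loops. HuR (Elavl1) binds AU-rich elements and tends to stabilise the transcript. N4BP1 has a nuclease-type domain related to that of Regnase-1 and restrains NF-kB-driven cytokine production. Several of the genes are themselves induced in macrophages by LPS. A peak marks DNA that the transposase could reach and measures neither the transcript nor the protein.

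The deposited lists hold peaks of 201 bp with a score, and their length is the only sign of depth. After overlapping peaks were collapsed, the 22 lists used held 11349 to 127242 peaks. They were limited within each sequencing lane to the strongest 11349, 22037, 16045 and 13957 peaks (lanes 1 to 4), so a difference is a change in rank and not in total accessibility. Each peak has a rank score, from 1 for the strongest peak of its list towards 0 for the weakest, and 0 also stands for no peak. Having no peak means none in the limited list, and a longer deposited list may hold a weaker one. Each of the 10 macrophage markers had a peak in every treatment, with summed median peaks of 16, 20.5 and 26 in media, LPSx1 and LPSx2. Of the 5 B-cell markers 1, 0 and 0 had a peak, and of the 8 T- and NK-cell markers 3, 2 and 1. Of the 6 neutrophil markers 1, 2 and 3 had a peak, of the 6 stromal markers 1, 2 and 2, and of the 4 erythroid markers 1, 1 and 2. Of the 5 dendritic-cell markers 4, 5 and 5 had a peak, with summed medians of 3, 2 and 1 peaks. What these shifts contribute to the values below was not tested, and fewer cells with an open site cannot be told apart from a weaker opening in every cell.

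All 8 genes passed the filter of a mean of 0.5 peaks per library, Elavl1 exactly at it and only with its LPS libraries. Peak numbers per library moved with LPS in both directions. Zc3h12c gained peaks in LPSx1 and LPSx2 libraries and Zfp36 lost peaks in LPSx2 libraries. Of the 6 genes that were tested, Zc3h12c was the 1 called higher in LPSx1, where 3.19% of 9127 genes were called higher and 2.21% lower (limma with Benjamini-Hochberg adjustment over all genes, threshold 0.05). In LPSx2, Zc3h12c was called higher and Zfp36 lower, against 3.29% higher and 2.82% lower over all genes. The median difference of the 6 genes was 0.47 peaks in LPSx1 and 0.44 in LPSx2, and that of all genes was 0 in both. No tested gene kept a call when the lane term was dropped, when lists were left as long as deposited, when the lists with duplicates were left out or within lanes 1 and 2. Lanes 3 and 4 hold 10 libraries, with only 1 C57BL6/J media and 1 C57BL6/J LPSx2 library, both of animal 7. Fits of lanes 3 and 4 are therefore read for the size of a difference and not for calls.

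**Figure D1:**
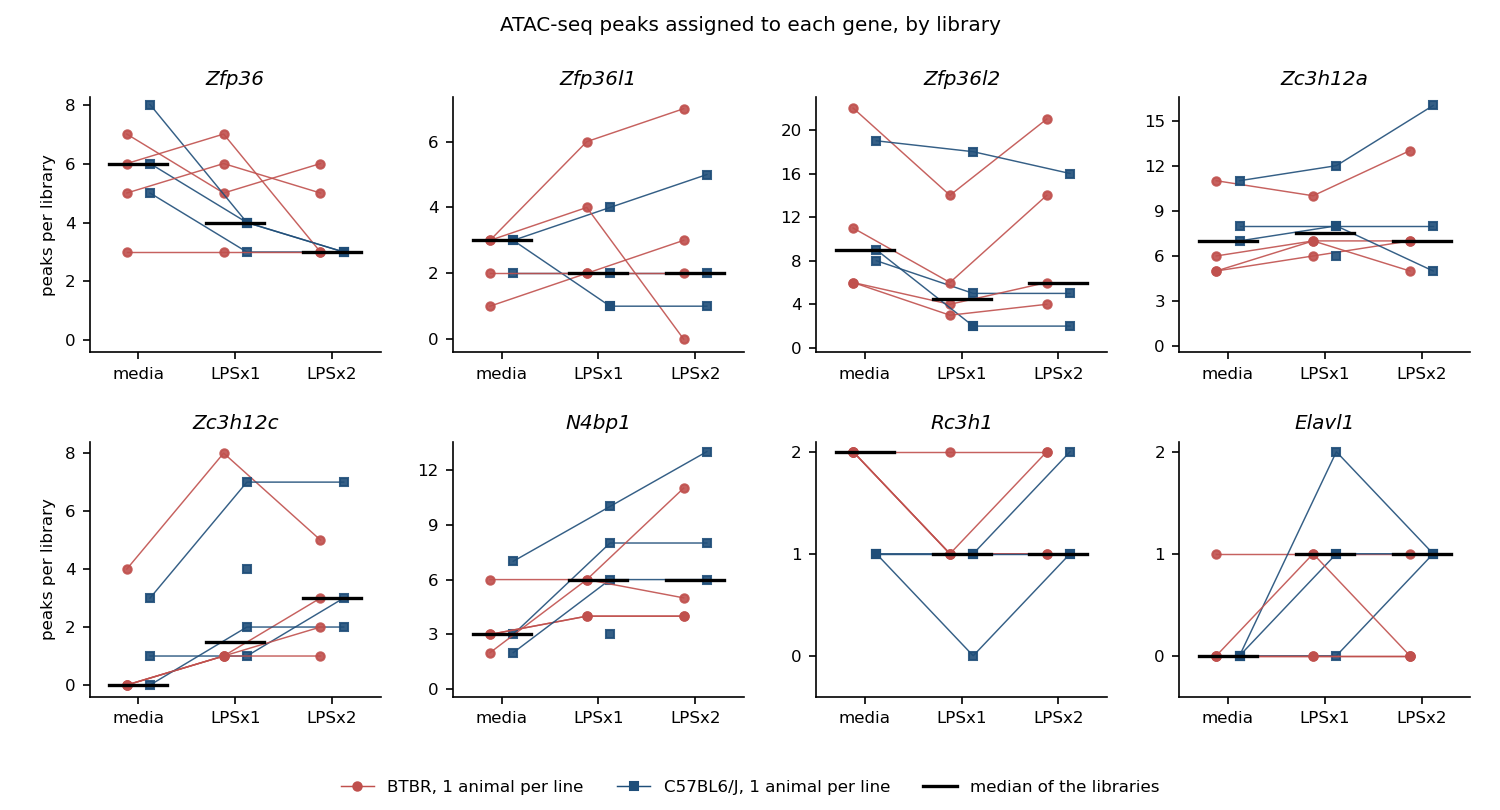
Number of ATAC-seq peaks assigned to each of the 8 genes (vertical axis, peaks per library) in media, LPSx1 and LPSx2 (horizontal axis). Each point is a library, each line joins the libraries of 1 animal, and black bars are medians. In the Zc3h12c panel the bars stand at 0, 1.5 and 3 peaks, and in the Zfp36 panel at 6, 4 and 3.

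Zfp36 encodes tristetraprolin, the founding member of the family, which drives decay of Tnf mRNA. It had 3 to 6 peaks (median 3) in LPSx2 libraries and 3 to 7 (median 4) in LPSx1 libraries, against 3 to 8 (median 6) in media libraries. Peak number fell by 2.17 in LPSx2 (SE 0.55, adjusted p = 0.0352, limma), with 5 of 7 animals lower and none higher. In LPSx1 the difference was -1.35 (SE 0.54, adjusted p = 0.159). In lanes 1 and 2 alone the LPSx2 difference was -2.0 and in lanes 3 and 4 alone -2.25, without a call in either. The LPSx2 call was also lost with the animal as a block (adjusted p = 0.0515) and without any one of animals 1, 3, 4, 5, 7 or 8 (adjusted p 0.0516, 0.0612, 0.166, 0.0813, 0.107 and 0.0815).

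At 3 of the 6 tested Zfp36 regions the rank score was called lower in both LPS treatments. Over the series 11.5% of 25482 tested regions were called lower in LPSx2 and 9.68% in LPSx1. Zfp36 lies on the minus strand of chromosome 7 (28376784 to 28380253, ENSMUSG00000044786.6, mm10), and its regions run upstream through an intron of the antisense gene Gm44710. The region around the inner of its 2 annotated start sites, chr7:28379172-28379460, lies inside the gene and overlaps its first coding exon. It had a peak in 1 of 7 LPSx2 and 4 of 8 LPSx1 libraries, against 6 of 7 media libraries. Its rank score ran from 0 to 0.183 (median 0) in LPSx2 and from 0 to 0.533 (median 0.0219) in LPSx1, against 0 to 0.811 (median 0.632) in media. It fell by 0.558 in LPSx2 (SE 0.094, adjusted p = 8.26e-05) and by 0.459 in LPSx1 (SE 0.092, adjusted p = 0.000625), and 6 of 7 animals were lower each time. The exception was BTBR animal 2, which had no peak there in its limited list of any treatment.

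The second region, 1.76 kb upstream of the outer start site at chr7:28381678-28382349, had a peak in 3 of 7 LPSx2 and 4 of 8 LPSx1 libraries, against 6 of 7 media libraries. Rank scores there were 0 to 0.421 (median 0) in LPSx2 and 0 to 0.574 (median 0.0842) in LPSx1, against 0 to 0.939 (median 0.701) in media. They fell by 0.548 in LPSx2 (SE 0.107, adjusted p = 0.00048) and by 0.479 in LPSx1 (SE 0.104, adjusted p = 0.00151). The third region, 5.92 kb upstream at chr7:28385945-28386394, overlaps an untranslated part of the neighbouring gene Med29. It kept a peak in 6 of 7 LPSx2 and 8 of 8 LPSx1 libraries, against 7 of 7 media libraries, at lower ranks. The medians were 0.136 in LPSx2 and 0.451 in LPSx1, against 0.831 in media. The fall was 0.455 in LPSx2 (SE 0.105, adjusted p = 0.00245) and 0.348 in LPSx1 (SE 0.102, adjusted p = 0.0158).

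Between these regions, sites 1.02 kb and 2.88 kb upstream had a peak in all 22 libraries. The median rank score at 1.02 kb was 0.695 in LPSx2 and 0.728 in LPSx1, against 0.910 in media, and at 2.88 kb it was 0.845 and 0.788, against 0.916. Neither was called. The differences at the 3 called regions held their sign in both pairs of lanes. They were -0.423 and -0.714 at the inner start site, -0.350 and -0.783 at 1.76 kb, and -0.183 and -0.788 at 5.92 kb in LPSx2 (lanes 1 and 2, then lanes 3 and 4). At 5.92 kb the LPSx1 call was lost without animal 7 (difference -0.314, adjusted p = 0.0638) and both LPS calls were lost in lanes 1 and 2 alone. The LPSx1 call at 1.76 kb was lost in lanes 3 and 4 alone (adjusted p = 0.0893). With lists left as long as deposited, the LPSx1 calls at all 3 regions (adjusted p 0.283, 0.0721 and 0.239) and the LPSx2 call at 5.92 kb (adjusted p = 0.0583) were lost.

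Sequences of 2 Zfp36 windows show the letters under a region that lost rank and under its neighbour that had a peak in every library. Each is the strongest 201 bp peak of its region, on the plus strand of the mm10 reference, which is C57BL/6J. Capitals mark matches to the searched motifs. The first holds a PU.1 motif (GAGGAAGT) and the inner bases of an NF-kB motif (GGANNTTCC), read here on the opposite strand as GGAAAATCC. The second holds an AP-1 motif (TGACTCA), a STAT motif (TTCCNGGAA) and a pair of SP/KLF motifs (GGGCGGG).
Zfp36 1.76 kb upstream, chr7:28381966-28382166: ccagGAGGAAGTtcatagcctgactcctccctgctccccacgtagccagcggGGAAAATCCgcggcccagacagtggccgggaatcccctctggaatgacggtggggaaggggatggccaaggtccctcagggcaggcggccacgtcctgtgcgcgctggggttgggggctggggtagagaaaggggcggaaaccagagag
Zfp36 1.02 kb upstream, chr7:28381057-28381257: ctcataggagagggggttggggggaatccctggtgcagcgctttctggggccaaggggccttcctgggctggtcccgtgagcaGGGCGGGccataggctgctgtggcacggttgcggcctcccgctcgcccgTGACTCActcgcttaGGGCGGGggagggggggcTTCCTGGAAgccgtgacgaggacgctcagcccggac

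By strain, the Zfp36 region at the inner start site had rank scores in BTBR of 0, 0, 0 and 0.183 in LPSx2 and of 0, 0.125, 0.309 and 0.533 in LPSx1, against 0, 0.509, 0.543 and 0.690 in media. In C57BL6/J, 1 of 7 LPS libraries held a peak, at 0.0438, against 0.632, 0.734 and 0.811 in the 3 media libraries. Within BTBR the difference was -0.390 in LPSx2 and -0.194 in LPSx1, and within C57BL6/J it was -0.726 and -0.725. The difference between the strains in the LPS response was 0.336 in LPSx2 (adjusted p = 0.621) and 0.531 in LPSx1 (adjusted p = 0.355). For peak number the strain difference of the response was 2.33 in LPSx2 (adjusted p = 0.778) and 2.71 in LPSx1 (adjusted p = 0.827).

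Zfp36l1, a paralogue that also binds AU-rich elements, lost its promoter peak with LPS while its peak number did not pass the test. The promoter region, chr12:80112817-80113311, covers the annotated start and overlaps an exon of the lincRNA Gm26669. It had a peak in 1 of 7 LPSx2 and 1 of 8 LPSx1 libraries, against 5 of 7 media libraries. Rank scores were 0 to 0.0069 (median 0) in LPSx2 and 0 to 0.471 (median 0) in LPSx1, against 0 to 0.637 (median 0.343) in media. They fell by 0.378 in LPSx2 (SE 0.080, adjusted p = 0.00111) and by 0.339 in LPSx1 (SE 0.078, adjusted p = 0.00251). The region reached the filter of 4 libraries with a peak only with its media libraries, where it ranked high, and both calls have that limit. BTBR libraries had values of 0, 0, 0 and 0.0069 in LPSx2 and 0, 0, 0 and 0.471 in LPSx1, against 0, 0, 0.272 and 0.343 in media. None of the 7 C57BL6/J LPS libraries had the peak, against 0.574, 0.599 and 0.637 in the C57BL6/J media libraries. The strain difference of the response was 0.606 in LPSx1 (SE 0.156, adjusted p = 0.161) and 0.451 in LPSx2 (SE 0.160, adjusted p = 0.413). In lanes 3 and 4 alone the differences were -0.453 in LPSx2 and -0.361 in LPSx1, without a call. Lanes 1 and 2 held the peak in too few libraries for a fit. With lists left as long as deposited both calls were lost (-0.404 in LPSx2 and -0.208 in LPSx1). Each call was lost in 4 of 8 alternatives other than leaving out an animal.

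A site 49.06 kb downstream of the Zfp36l1 start, in an intron of the lincRNA Gm36660 (chr12:80063793-80064076), had a peak in 5 of 7 LPSx2 and 4 of 8 LPSx1 libraries, against 0 of 7 media libraries. Its rank score was higher by 0.252 in LPSx2 (SE 0.087, adjusted p = 0.0364) and by 0.193 in LPSx1 (adjusted p = 0.106). The region passed the filter of 4 libraries with a peak through LPS libraries alone, and with no such filter the LPSx2 call was lost (adjusted p = 0.0750). It was also lost without any one of animals 1, 2, 3 or 4 (differences 0.215, 0.238, 0.194 and 0.231, adjusted p 0.135, 0.0698, 0.0615 and 0.115). Peak number at Zfp36l1 was 0 to 7 (median 2) in LPSx2 and 1 to 6 (median 2) in LPSx1, against 1 to 3 (median 3) in media, with differences of 0.38 (adjusted p = 0.801) and 0.41 (adjusted p = 0.793). The stretch just upstream of the Zfp36l1 start, from the strongest peak of the promoter region, held none of the searched motifs.
Zfp36l1 upstream of the start, chr12:80113014-80113152: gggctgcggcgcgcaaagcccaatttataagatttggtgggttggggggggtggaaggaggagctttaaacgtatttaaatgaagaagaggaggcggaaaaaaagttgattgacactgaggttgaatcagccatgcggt

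Zfp36l2, the third family member and known for its role in lymphocyte and blood stem cell development, had 28 regions, of which 16 were tested. It had 2 to 21 peaks (median 6) in LPSx2 and 2 to 18 (median 4.5) in LPSx1 libraries, against 6 to 22 (median 9) in media libraries. Peak number differed by -4.12 in LPSx1 (SE 1.01), with 7 of 7 animals lower, and by -2.17 in LPSx2 (SE 1.03), with 5 lower and 1 higher. Of its 16 tested regions 12 had a lower mean rank score and 4 a higher one in each LPS treatment. Over all tested regions 50.3% had a higher one in LPSx2 and 51.4% in LPSx1. The count partly restates the choice of this gene for fewer peaks. The promoter region, chr17:84187821-84188837, had a peak in 7 of 7 LPSx2 and 6 of 8 LPSx1 libraries, against 7 of 7 media libraries. Its rank scores were 0.208 to 0.817 (median 0.736) in LPSx2 and 0 to 0.840 (median 0.522) in LPSx1, against 0.901 to 0.985 (median 0.959) in media. The differences were -0.389 (SE 0.092) in LPSx2 and -0.495 (SE 0.089) in LPSx1. Every LPS library stood below every media library, and how many regions of the series do so was not counted.

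At the Zfp36l2 promoter the LPSx2 libraries are given by strain. How many regions of the series separate the strains as these values do was not counted. BTBR LPSx2 libraries had rank scores of 0.736, 0.804, 0.810 and 0.817, and C57BL6/J LPSx2 libraries 0.208, 0.295 and 0.517. The difference from media was -0.154 in BTBR and -0.625 in C57BL6/J, so the responses differed by 0.471 (SE 0.183), given with no test. For peak number the LPSx2 difference was 0 in BTBR and -4.33 in C57BL6/J. Averaged over treatments, BTBR stood 0.209 above C57BL6/J at the promoter (adjusted p = 0.0968).

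Beyond the Zfp36l2 promoter, the region 61.60 kb downstream had a peak in 6 of 7 LPSx2 and 5 of 8 LPSx1 libraries, against 7 of 7 in media, with differences of -0.213 and -0.370. Close to the 3' end of the gene, the regions 4.33 and 6.05 kb downstream differed by -0.117 and -0.289 in LPSx2 and by -0.252 and -0.336 in LPSx1. At 87.24 kb upstream, in an intron of Thada, the difference ran the other way, 0.278 in LPSx2 and 0.221 in LPSx1, with a peak in 5 of 7 and 5 of 8 libraries against 3 of 7 in media. The window 4.33 kb downstream is shown because it holds an E-box (CACGTG) beside an AP-1 motif and had a peak in 4 of 7 LPSx2 and 2 of 8 LPSx1 libraries, against all 7 media libraries.
Zfp36l2 4.33 kb downstream, chr17:84183516-84183716: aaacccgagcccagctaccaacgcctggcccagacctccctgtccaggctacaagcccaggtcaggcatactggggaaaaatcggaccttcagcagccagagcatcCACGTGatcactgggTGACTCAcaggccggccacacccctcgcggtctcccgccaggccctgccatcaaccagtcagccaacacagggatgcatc

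**Figure D2:**
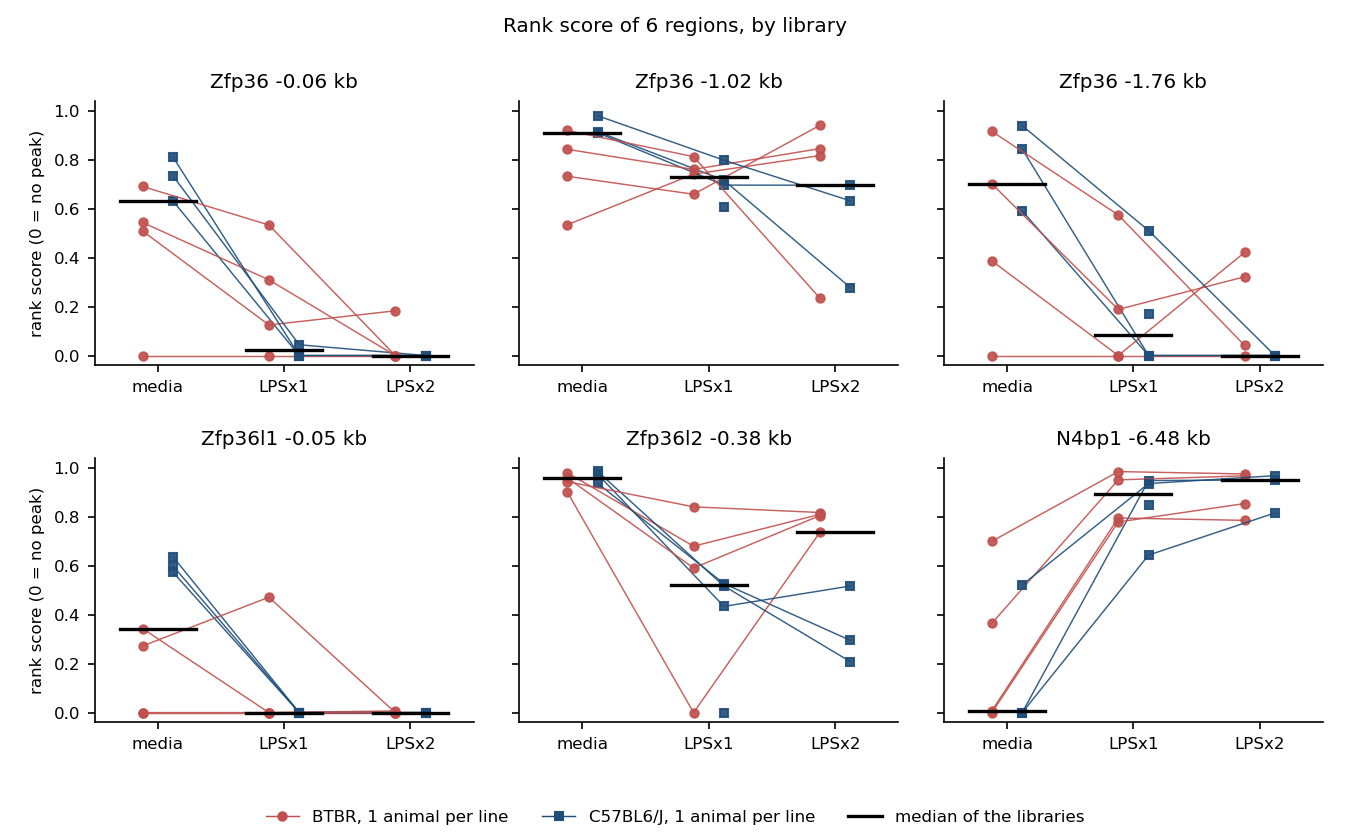
Rank score (vertical axis, 0 is no peak) of 6 regions in media, LPSx1 and LPSx2, with 1 point per library, 1 line per animal and black bars at the medians. Panel titles give the gene and the distance from its nearest start site in kb, minus for upstream. The Zfp36l2 promoter medians are 0.959, 0.522 and 0.736, and those of the N4bp1 region 6.48 kb upstream are 0.00748, 0.892 and 0.950.

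Zc3h12a encodes Regnase-1, an endonuclease that degrades Il6 and other cytokine mRNAs. Its peak number was 5 to 16 (median 7) in LPSx2 and 6 to 12 (median 7.5) in LPSx1 libraries, against 5 to 11 (median 7) in media, and neither difference was called (1.12, adjusted p = 0.404, and 0.53, adjusted p = 0.749). Among its 12 tested regions, 11 had a higher mean rank score in LPSx2 and 9 in LPSx1, against 50.3% and 51.4% of all tested regions. A region 17.55 kb upstream, chr4:125145210-125145567, had a peak in all 22 libraries. It stood at 0.673 to 0.940 (median 0.849) in LPSx2 and at 0.799 to 0.946 (median 0.908) in LPSx1, against 0.50 to 0.904 (median 0.795) in media. It rose by 0.165 in LPSx1 (SE 0.045, adjusted p = 0.0106), in 7 of 7 animals, and the differences were 0.142 in lanes 1 and 2 and 0.202 in lanes 3 and 4, the second without a call (adjusted p = 0.0516). The call was lost in 5 of 10 alternatives other than leaving out an animal. Among them was the setting with lists left as long as deposited (adjusted p = 0.0741). In LPSx2 it differed by 0.108 (adjusted p = 0.0929).

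A pair of Zc3h12a sites downstream of the gene rose in LPSx2. The site 11.10 kb from the start, chr4:125116591-125116883, had rank scores of 0.429 to 0.938 (median 0.849) in LPSx2 and 0 to 0.940 (median 0.713) in LPSx1, against 0 to 0.866 (median 0.373) in media. It was higher by 0.283 in LPSx2 (SE 0.087, adjusted p = 0.0199), in 7 of 7 animals, a call lost without animal 1 (0.212, adjusted p = 0.12) and in lanes 3 and 4 alone (0.262). It was lost in 6 of 10 alternatives other than leaving out an animal, with an adjusted p of up to 0.652 when peaks were scored as present or absent. The site at 12.93 kb, chr4:125114764-125115052, had a peak in 4 of 7 LPSx2 and 3 of 8 LPSx1 libraries, against 1 of 7 in media. It reached the filter of 4 libraries only with its LPS libraries. Its LPSx2 difference was 0.327 (SE 0.100, adjusted p = 0.0192). That call was lost without any one of animals 1, 2, 3 or 4 (differences 0.316, 0.287, 0.301 and 0.225, adjusted p 0.0627, 0.0577, 0.0508 and 0.160). It was also lost in 5 of 9 other alternatives, with a difference of 0.068 (adjusted p = 0.940) without the lists with duplicated peaks. In LPSx1 the difference there was 0.237 (adjusted p = 0.0830), and 0.282 (adjusted p = 0.04997) with the animal as a block, which counts as a call. The Zc3h12a promoter region moved in the opposite sense without a call, by -0.186 in LPSx2 (adjusted p = 0.146) and -0.059 in LPSx1 (adjusted p = 0.671).
The 17.55 kb window, with a peak in every library, holds a C/EBP motif (TTGCNNAA), matched on the opposite strand.
Zc3h12a 17.55 kb upstream, chr4:125145263-125145463: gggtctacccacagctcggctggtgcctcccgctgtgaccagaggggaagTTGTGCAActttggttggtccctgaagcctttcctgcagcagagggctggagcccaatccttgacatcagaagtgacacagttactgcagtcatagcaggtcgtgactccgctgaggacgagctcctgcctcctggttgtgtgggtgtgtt

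Zc3h12c, whose product Regnase-3 is a nuclease of the same family, was the gene called higher in both LPS treatments. It had 1 to 7 peaks (median 3) in LPSx2 and 1 to 8 (median 1.5) in LPSx1 libraries, against 0 to 4 (median 0) in media libraries. Every LPS library had a Zc3h12c peak, and 4 of 7 media libraries had none. Peak number was higher by 2.21 in LPSx2 (SE 0.57, adjusted p = 0.0355), in 7 of 7 animals, and by 2.04 in LPSx1 (SE 0.55, adjusted p = 0.0474), in 6 of 7. In lanes 1 and 2 the differences were 2.0 and 2.25, and in lanes 3 and 4 they were 2.25 and 1.81 (LPSx2, then LPSx1), without a call. With the animal as a block they were 2.21 (adjusted p = 0.0551) and 1.87 (adjusted p = 0.108). The LPSx1 call was lost without any one of animals 2 to 8 (adjusted p between 0.0764 and 0.195) and the LPSx2 call without any one of animals 1, 2, 4, 5, 7 or 8 (adjusted p between 0.0626 and 0.146).

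Over its 7 tested regions, 6 had a higher mean rank score in LPSx2 and 5 in LPSx1, against 50.3% and 51.4% of all tested regions. The region called was 24.00 kb downstream of the start, in a coding exon (chr9:52143964-52144250). It had a peak in 6 of 7 LPSx2 and 5 of 8 LPSx1 libraries, against 0 of 7 media libraries. Rank scores were 0 to 0.719 (median 0.348) in LPSx2 and 0 to 0.511 (median 0.0715) in LPSx1, against 0 in each media library. The LPSx2 difference was 0.345 (SE 0.098, adjusted p = 0.0121), in 6 of 7 animals, and the LPSx1 difference 0.160 (adjusted p = 0.231). The region passed the filter through LPS libraries alone, and with no such filter it was still called (adjusted p = 0.0396). The call was lost without animal 4 (0.275, adjusted p = 0.0917) and without animal 7 (0.320, adjusted p = 0.0503). It was also lost in 4 of 9 alternatives other than leaving out an animal. Among those was each pair of lanes alone (0.258 in lanes 1 and 2 and 0.457 in lanes 3 and 4). The promoter region of Zc3h12c had a peak in 0 of 7 LPSx2 and 2 of 8 LPSx1 libraries, against 3 of 7 in media, with differences of -0.126 (adjusted p = 0.0632) and -0.104 (adjusted p = 0.125). The exonic window carries an AP-1 motif near its centre.
Zc3h12c coding exon, chr9:52144044-52144244: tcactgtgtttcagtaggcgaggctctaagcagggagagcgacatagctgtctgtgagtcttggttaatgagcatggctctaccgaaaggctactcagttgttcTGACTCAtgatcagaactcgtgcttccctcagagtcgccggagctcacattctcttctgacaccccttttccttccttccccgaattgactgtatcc

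Rc3h1, which encodes Roquin-1, had 4 regions, of which 2 were tested. Its peak number was 1 to 2 (median 1) in LPSx2 and 0 to 2 (median 1) in LPSx1, against 1 to 2 (median 2) in media, with differences of -0.08 (adjusted p = 0.861) and -0.48 (adjusted p = 0.156). Its promoter region, chr1:160906053-160906540, had a peak in 21 of 22 libraries and ranked lower with LPS. It stood at 0.0219 to 0.831 (median 0.712) in LPSx2 and at 0 to 0.928 (median 0.790) in LPSx1, against 0.434 to 0.923 (median 0.879) in media. It fell by 0.272 in LPSx2 (SE 0.079, adjusted p = 0.0138), in 7 of 7 animals. The fall was 0.368 in lanes 1 and 2, with a call, and 0.113 in lanes 3 and 4. Without animal 1 the LPSx2 difference was -0.171 (adjusted p = 0.0834), and with lists as deposited it was -0.092 (adjusted p = 0.401). The LPSx2 call was lost in 4 of 10 alternatives other than leaving out an animal. In LPSx1 the difference was -0.204 (adjusted p = 0.0584). The promoter window, which ends before the annotated transcript, holds an AP-1 motif between a pair of SP/KLF motifs.
Rc3h1 promoter, chr1:160906133-160906333: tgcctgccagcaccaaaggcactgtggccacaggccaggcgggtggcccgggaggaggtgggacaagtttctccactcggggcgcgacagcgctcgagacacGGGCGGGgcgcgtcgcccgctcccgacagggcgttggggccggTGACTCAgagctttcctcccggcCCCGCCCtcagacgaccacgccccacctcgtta

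Elavl1, which encodes HuR, had few peaks. It had 0 to 1 (median 1) in LPSx2 and 0 to 2 (median 1) in LPSx1 libraries, against 0 to 1 (median 0) in media, with differences of 0.50 (adjusted p = 0.164) and 0.67 (adjusted p = 0.0747). Without animal 1 the LPSx1 difference was 0.90 (adjusted p = 0.0262), which counts as a call. Mean peak number was 0.57 in LPSx2 and 0.75 in LPSx1, against 0.14 in media. Elavl1 thus reached the filter of a mean of 0.5 peaks only with its LPS libraries, and its adjusted p-values have that limit. Of its 2 regions 1 was tested, 10.44 kb upstream in an intron of the chemokine gene Ccl25. It had a peak in 4 of 7 LPSx2 and 5 of 8 LPSx1 libraries, against 1 of 7 in media, and its rank score was not called (0.111, adjusted p = 0.258, and 0.063, adjusted p = 0.539).

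N4bp1 had 4 to 13 peaks (median 6) in LPSx2 and 3 to 10 (median 6) in LPSx1 libraries, against 2 to 7 (median 3) in media libraries. Peak number differed by 3.75 in LPSx2 (SE 0.79), with 7 of 7 animals higher, and by 2.43 in LPSx1 (SE 0.77), with 6 of 7 higher. In lanes 1 and 2 the differences were 4.25 and 2.25 and in lanes 3 and 4 they were 3.00 and 2.81. The region 6.48 kb upstream, chr8:86891565-86891902, carried the widest separation. It had a peak in 7 of 7 LPSx2 and 8 of 8 LPSx1 libraries, against 4 of 7 media libraries. Rank scores were 0.785 to 0.974 (median 0.950) in LPSx2 and 0.643 to 0.984 (median 0.892) in LPSx1, against 0 to 0.699 (median 0.00748) in media. The highest media library, at 0.699, lay below every LPSx2 library and above the lowest LPSx1 library. How many regions of the series separate LPSx2 from media this way was not counted. The differences were 0.682 (SE 0.077) in LPSx2 and 0.658 (SE 0.075) in LPSx1, in 7 of 7 animals each.

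Other N4bp1 regions followed in the gene body. The intronic region 3.81 kb downstream of the start had a peak in 6 of 7 LPSx2 and 7 of 8 LPSx1 libraries, against 3 of 7 in media, with differences of 0.392 and 0.293. At 6.46 kb, also intronic, a peak was present in 4 of 7 LPSx2 and 3 of 8 LPSx1 libraries, against 0 of 7 in media. That region passed the filter of 4 libraries with a peak through LPS libraries alone. In a coding exon 23.56 kb downstream, 4 of 7 LPSx2 libraries had a peak, against 0 of 8 LPSx1 and 0 of 7 media libraries. The exonic region passed the filter through LPSx2 libraries alone, so its difference of 0.176 between LPSx2 and LPSx1 (SE 0.061) is only a description. The promoter region was not part of this pattern, with a median of 0.197 in LPSx2 and 0.258 in LPSx1, against 0.321 in media, and differences of -0.081 and -0.097. Its sign differed between lane pairs, with 0.098 in lanes 1 and 2 and -0.341 in lanes 3 and 4 for LPSx2. The window 6.48 kb upstream is printed because its LPS difference is the largest of the 61 regions in both treatments, and it holds a RUNX motif (TGTGGTT), matched on the opposite strand.
N4bp1 6.48 kb upstream, chr8:86891637-86891837: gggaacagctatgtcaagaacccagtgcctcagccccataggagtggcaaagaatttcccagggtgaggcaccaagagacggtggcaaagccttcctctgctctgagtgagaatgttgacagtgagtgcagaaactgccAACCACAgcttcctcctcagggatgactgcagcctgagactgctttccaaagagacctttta

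**Figure D3:**
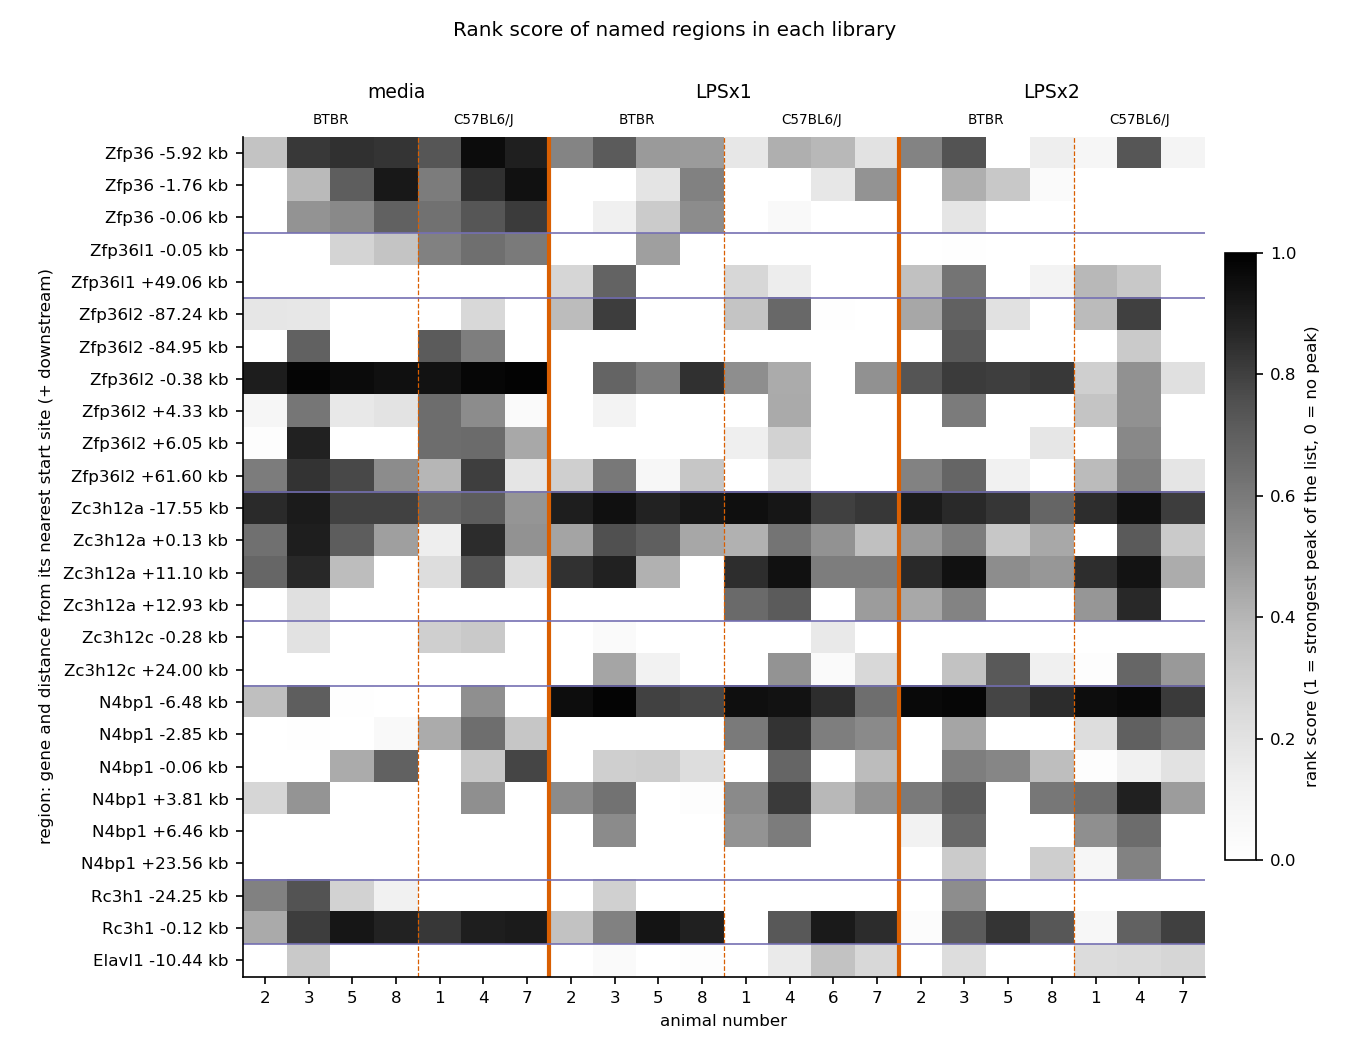
Rank score (grey scale, 0 is no peak and 1 the strongest peak) of the named regions in each of the 22 libraries. Rows give the gene and the distance from its nearest start site in kb, and columns give the animals, grouped by treatment and strain. The row of the N4bp1 region 6.48 kb upstream is dark in every LPSx1 and LPSx2 column, and the row of the Zfp36 region at the inner start site holds 1 grey cell in LPSx2.

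The strains differed at 2 of the 61 tested regions, against 4.47% of 25482 regions over the series, and at none of the 8 genes by peak number, against 1.14% of genes. In these fits the libraries of an animal counted as nearly independent, so the p-values do not measure the spread between animals. At N4bp1, a region 2.85 kb upstream (chr8:86887968-86888252) had a peak in the limited lists of 3 of 12 BTBR and 10 of 10 C57BL6/J libraries. Rank scores were 0 to 0.450 (median 0) in BTBR and 0.229 to 0.833 (median 0.590) in C57BL6/J. BTBR minus C57BL6/J was -0.487 (SE 0.072, adjusted p = 1.3e-05), and -0.495 and -0.487 in the lane pairs, with a call in lanes 1 and 2. The call was lost without the lane term (adjusted p = 0.0721), with the stronger 50% of each list (adjusted p = 0.0763) and with lists as deposited (adjusted p = 0.806). The limit weighed most on BTBR animal 2, whose lists were cut from 63125, 112429 and 127242 peaks (media, LPSx1 and LPSx2) to 11349. The BTBR peaks lay in media and LPSx2 libraries of animal 3, at 0.0098 and 0.450, and in the media library of animal 8, at 0.0446. Over animals the means were 0.042 ± 0.074 in BTBR and 0.554 ± 0.131 in C57BL6/J (SD, n = 4 each).

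At Rc3h1, a region 24.25 kb upstream (chr1:160882009-160882336) had a peak in 6 of 12 BTBR and 0 of 10 C57BL6/J libraries. Each of the 4 BTBR media libraries held it, at 0.110, 0.281, 0.571 and 0.743, and the other 2 peaks were those of animal 3 in LPSx1 and LPSx2, at 0.288 and 0.531. BTBR minus C57BL6/J was 0.231 (SE 0.066, adjusted p = 0.0335), and 0.355 in lanes 1 and 2, with too few peaks for a fit in lanes 3 and 4. Animal means were 0.210 ± 0.216 in BTBR and 0 in each C57BL6/J animal (SD, n = 4 each). The call was lost without any one of animals 1, 2 or 4 (differences 0.252, 0.249 and 0.111, adjusted p 0.0856, 0.0562 and 0.472), without the lane term, and with lists as deposited. The region passed the filter through BTBR libraries alone, and with no such filter the call was lost (adjusted p = 0.0738). Both windows are printed from the C57BL/6J reference, and the BTBR sequence was not used here. The N4bp1 window holds an AP-1 motif and the Rc3h1 window none of those searched.
N4bp1 2.85 kb upstream, chr8:86887995-86888195: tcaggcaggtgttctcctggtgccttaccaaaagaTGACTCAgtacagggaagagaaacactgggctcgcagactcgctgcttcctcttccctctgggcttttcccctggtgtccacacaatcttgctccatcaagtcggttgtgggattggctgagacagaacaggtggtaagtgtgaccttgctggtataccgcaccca
Rc3h1 24.25 kb upstream, chr1:160882009-160882209: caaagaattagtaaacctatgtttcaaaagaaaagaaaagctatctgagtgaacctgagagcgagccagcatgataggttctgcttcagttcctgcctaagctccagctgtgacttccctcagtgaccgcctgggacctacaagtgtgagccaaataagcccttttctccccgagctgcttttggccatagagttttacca

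**Figure D4:**
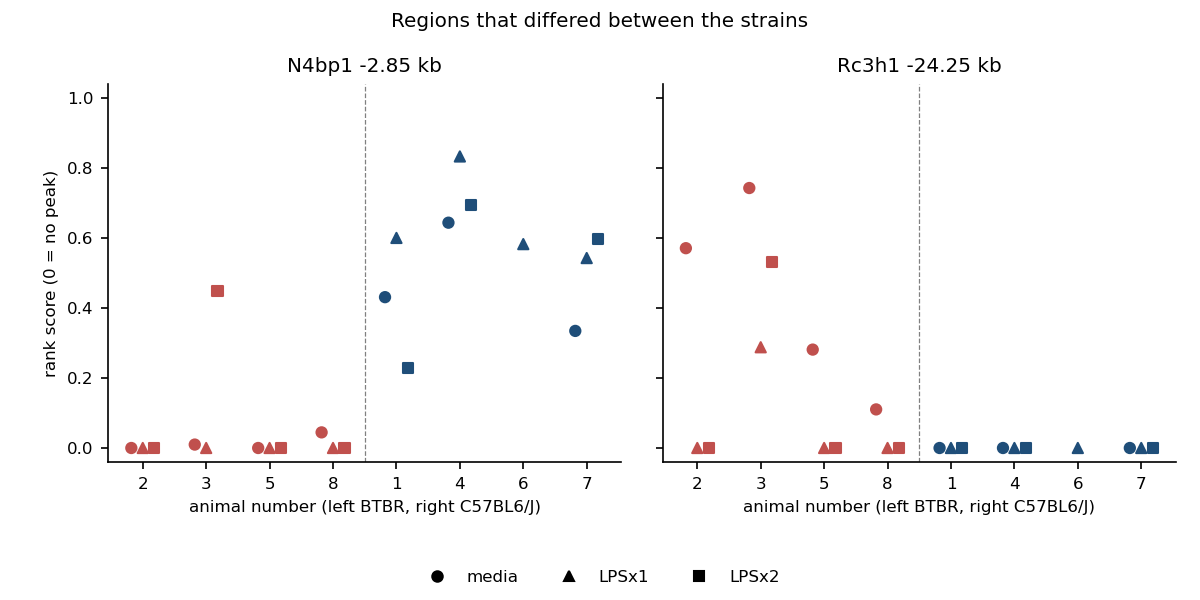
Rank score (vertical axis, 0 is no peak) of the N4bp1 region 2.85 kb upstream and the Rc3h1 region 24.25 kb upstream in each animal, BTBR on the left and C57BL6/J on the right of the dashed line. Circles, triangles and squares are media, LPSx1 and LPSx2 libraries. At N4bp1 all 10 C57BL6/J points stand at 0.229 or above, and at Rc3h1 all 10 stand at 0.

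The response to LPS was not called different between the strains at any of the 6 tested genes or their 35 regions, against 0.0329% and 0.0110% of genes and 0.00392% and 0.0157% of regions (LPSx1, then LPSx2). Unadjusted p fell under 0.05 at 8 of the 35 regions for LPSx1 and at 4 for LPSx2, against 9.14% and 8.74% of all regions. LPSx2 against LPSx1 gave no call among the 6 genes or the 35 regions by limma, and none among all genes (0.00%) or all regions (0.00%). At an unadjusted p under 0.05 there were 402 genes and 1367 regions, among them none of the 6 genes and 2 of the 35 regions. Within lanes 1 and 2 alone, 31 of all genes were called between LPSx2 and LPSx1. Differences between the LPS treatments included 1.96 peaks at Zfp36l2 (SE 1.01), given with no test, and -0.81 at Zfp36 (SE 0.54, adjusted p = 0.985).

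Of 35 tested regions at the 6 tested genes, 4 were called higher and 5 lower in LPSx2, against 10.0% and 11.5% of all regions. In LPSx1, 1 was called higher and 4 lower, against 8.73% and 9.68%. Without the 7 lists with duplicated peaks, 2 of these regions were called in LPSx2 and 0 in LPSx1. Of the 4 called higher in LPSx2, 2 passed the filter through LPS libraries alone. Regions within 1 kb of a start site ranked lower with LPS throughout the series, with median differences of -0.0857 in LPSx2 and -0.0680 in LPSx1, against 0.0010 and 0.0045 over all regions. Of the 5 such regions at the 6 genes, 3 were called lower in LPSx2 and 2 in LPSx1, against 19.0% and 14.7% of all promoter regions. Among those called, the Zfp36l1 promoter reached the filter of 4 libraries only with its media libraries. Each of the 5 had a negative difference in both treatments. The called regions that rose lay 11.10, 12.93, 24.00 and 49.06 kb downstream of a start site in LPSx2 and 17.55 kb upstream in LPSx1, and the farthest that fell lay 5.92 kb upstream.

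**Figure D5:**
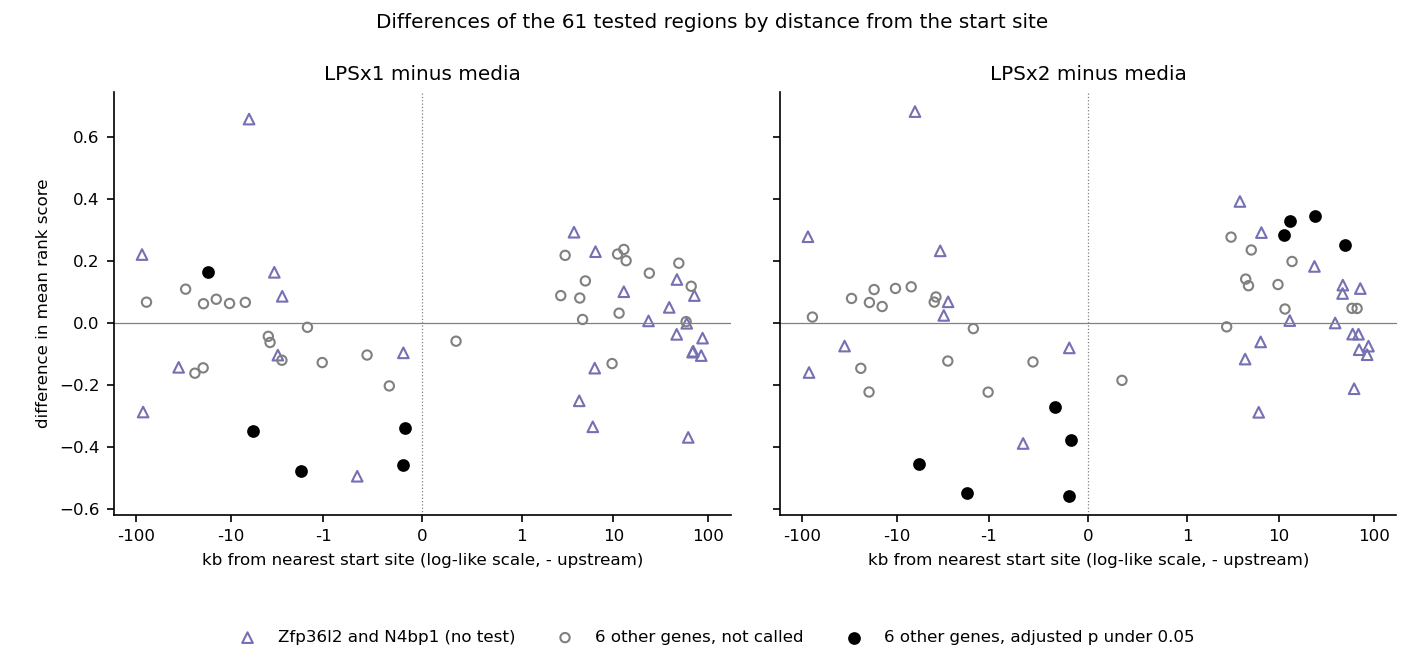
Difference in mean rank score, LPSx1 minus media (left) and LPSx2 minus media (right), of the 61 regions with a peak in at least 4 libraries against the distance from the nearest start site in kb (log-like scale, negative upstream). Black points passed an adjusted p of 0.05, open circles did not, and triangles are Zfp36l2 and N4bp1 regions without a test. The lower black points sit close to or upstream of the start, down to -0.558 at Zfp36.

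Motifs were searched on both strands in the strongest 201 bp window of each region, and a match is a string of letters, not a bound site. The 61 windows come from regions with a peak in at least 4 libraries, a filter that the 44999 regions of the series did not pass through. Of the 61 regions 7 lay within 1 kb of a start site, against 13599 of the 44999. AP-1 (TGACTCA) was found in 15 of the 61 windows, against 15.8% of all 44999 regions and 21.0% of those over 1 kb from a start site. C/EBP (TTGCNNAA) was found in 10 windows, against 12.5% of all regions and 15.6% of those over 1 kb from a start site. SP/KLF (GGGCGGG) was found in 8, against 15.7% of all regions, 42.8% of those within 1 kb of a start site and 4.03% of the others. PU.1 (GAGGAAGT) was found in 4, against 8.69% of all regions, RUNX (TGTGGTT) in 4, against 6.73%, and the E-box (CACGTG) in 3, against 5.08%. The NF-kB inner bases (GGANNTTCC, 3.70%) and the interferon-response core (GAAANNGAA, 7.14%) were found in 2 windows each, STAT (TTCCNGGAA, 0.722%) in 1, at Zfp36, and the cAMP-response element (TGACGTCA, 1.28%) in none.

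Around these genes, 92 further genes were followed in 5 lists, and 74 were tested. The lists held deadenylases and adaptors, decapping and exonuclease genes, other RNA-binding proteins and nucleases, 14 kinases, phosphatases and proteases, and 20 target transcripts. In LPSx2, 4 were called higher and 1 lower, and in LPSx1, 1 higher and 1 lower. Over all genes 3.29% were called higher and 2.82% lower in LPSx2, and 3.19% and 2.21% in LPSx1. With lists left as long as deposited no gene of the series was called in either treatment, so every call of a listed gene was lost there. How each of these calls fared in the other alternatives was not examined. Among 18 tested target transcripts of these proteins, Ptgs2, which encodes cyclooxygenase-2, had 1 to 8 peaks (median 4) in LPSx2, against 1 to 3 (median 2) in media (difference 2.46, adjusted p = 0.0148). Cxcl1, a neutrophil chemokine, had 1 to 4 (median 3) against 0 to 3 (median 0), higher by 1.79 (adjusted p = 0.0221). Il12b, which encodes a cytokine subunit, had 0 to 3 (median 2) in LPSx1 against 0 to 1 (median 0) in media, higher by 1.24 (adjusted p = 0.0314).

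Of 18 tested deadenylase genes and adaptors, Btg1, an adaptor of the CCR4-NOT complex, had 1 to 8 peaks (median 5) in LPSx2 against 1 to 2 (median 1) in media, higher by 3.46 (adjusted p = 0.0253). Of 10 tested decapping and exonuclease genes, Dcp2, the decapping enzyme, had 1 to 6 (median 3) against 1 in every media library, higher by 1.79 (adjusted p = 0.0398). Among 15 other RNA-binding proteins and related nucleases, N4bp2 had 0 to 2 peaks (median 0) in LPSx1 and 0 to 1 (median 1) in LPSx2, against 1 to 3 (median 2) in media. It fell by 1.56 in LPSx1 (adjusted p = 0.0233) and by 1.33 in LPSx2 (adjusted p = 0.0465). None of 13 tested kinases, phosphatases and proteases that act on these proteins was called in either treatment by limma, where 1983 and 2207 of all genes had an unadjusted p under 0.05 in LPSx1 and LPSx2.

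Among the 1835 genes that averaged 2 or more peaks, the lane-centred peak numbers most like those of Zfp36l2 over the 22 libraries were at Plekho2 (Pearson r = 0.806), Atp8b4 (0.760) and Sbno2 (0.753). Those most like N4bp1 were at Tcf4 (0.837), Itgb8 (0.821) and Slco3a1 (0.814). The libraries share animals, lanes and list length, so these correlations are a description.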

How the data were processed

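ATAC-seq peaks of 24 libraries were deposited as 1 list per library. Per the submitters' processing notes, reads were aligned to mm10 and the tools were Trimmomatic 0.38, SAMtools 1.8, Picard 2.18.4, HOMER and bedtools; the aligner is not given in the sources used here. The list names state a false discovery rate of 0.01. The authors deposited a score for each peak, in steps of 0.5 and with no stated scale, and it served here to order the peaks of 1 library. Read depth is unknown. Labels number the biological replicates 1 to 8, taken here as animals.

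In 7 lists most peaks overlapped another (66.7% to 87.4%, against at most 0.213% in the others). Peaks overlapping by at least 1 bp were collapsed to the highest score, lists under 5000 peaks were left out, and lists were cut to the shortest of their lane. Peaks went to the nearest TSS of GENCODE vM21 basic protein-coding transcripts within 100 kb. Regions are the union of the lists, tested where at least 4 libraries had a peak; the rank score is 1-(rank-1)/length. Coordinates are 1-based mm10, and sequences come from the matching genome. RefSeq promoters of 7 of the 8 genes were identical to it.

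Peak numbers and rank scores were fitted with limma 3.58.1 (trend, robust, R 4.3.3) with a term for each of the 6 strain and treatment groups and for the lane, adjusted over all rows. The strain contrast took the animal as random effect (consensus correlation -0.00393 for genes and -0.0353 for regions), so libraries of an animal were treated as nearly independent. Deviations from group means correlated between libraries with the same animal number in each of 21 pairs (r 0.195 to 0.800, median 0.510), and the numbers were taken as pairs because the labels give them as biological replicates. Libraries of different animals in 1 lane also correlated (median 0.298), and with the lane removed the same-number median was -0.0233 (-0.281 to 0.457). Python 3.11.15 was used for the rest.

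The genes, the pathway lists and the tests were chosen with earlier results of these data known. Named regions are those called in any contrast, the promoter region, and the region with the largest difference of each gene. The script was tested on simulated data. Region-level tests of the strain difference in response and the animal means were added after seeing the data. Alternatives covered the lane covariate, an animal block, list length, stronger peaks, merging, each animal and lane pair, the window and the filters. Additional PCR cycles ran from 5 to 13, per the labels, and their effect was not tested.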

Additional observations from a re-analysis of the deposited data

Results flagged for a closer look

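Within groups of 4 libraries, 9 of 32 groups of peak numbers and 28 of 104 groups of rank scores held a library far from the other 3, where chance gives about 1 in 20. Most flagged libraries were those of BTBR animal 3, sequenced in lane 2, whose lists were the longest used (22037 peaks). No explanation was tested.

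For peak numbers, BTBR animal 3 had 11 at Zc3h12a and 4 at Zc3h12c in media, 8 at Zc3h12c and 2 at Rc3h1 in LPSx1, 11 at N4bp1 and 1 at Elavl1 in LPSx2, and 1 at Elavl1 in media. C57BL6/J animal 1 had 3 at Zfp36 and 0 at Rc3h1 in LPSx1.

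For rank scores in media, BTBR animal 3 stood high at Zfp36l2, with 0.884 at 6.05 kb downstream and 0.690 at 84.95 kb upstream. It also stood high at 0.208 for Zc3h12a 12.93 kb downstream, 0.317 for Elavl1 10.44 kb upstream and 0.197 for the Zc3h12c promoter. In LPSx1 it stood at 0.288 for Rc3h1 24.25 kb upstream, 0.100 for Zfp36l2 4.33 kb downstream, 0.536 for N4bp1 6.46 kb downstream and 0.0376 for the Zc3h12c promoter. In LPSx2 it stood at 0.531 for Rc3h1 24.25 kb upstream, 0.0069 for the Zfp36l1 promoter, 0.594 and 0.721 for Zfp36l2 4.33 kb downstream and 84.95 kb upstream, and 0.183 for Zfp36 at the inner start site. The other LPSx2 values of that animal were 0.227 for Elavl1 10.44 kb upstream, 0.664 for N4bp1 6.46 kb downstream and 0.450 for N4bp1 2.85 kb upstream.

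C57BL6/J animal 4, also in lane 2, stood high in LPSx1 at 0.181, 0.434 and 0.000408 for Zfp36l2 61.60 kb and 4.33 kb downstream and 84.95 kb upstream, and at 0.0438 for the Zfp36 inner start site. BTBR animal 2 stood low at 0.347 for Zfp36 5.92 kb upstream in media, and at 0.0219 for the Rc3h1 promoter and 0.736 for the Zfp36l2 promoter in LPSx2. BTBR animal 5 had 0.471 at the Zfp36l1 promoter in LPSx1 and 0 at N4bp1 3.81 kb downstream in LPSx2. BTBR animal 8 had 0.178 at Zfp36l2 6.05 kb downstream in LPSx2, and C57BL6/J animal 6 had 0.162 at the Zc3h12c promoter in LPSx1.

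The left-out C57BL6/J LPSx2 list of animal 6 held 1 region of the 8 genes, the Rc3h1 promoter, at rank 1427 of 1877 peaks.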

How the results depend on the processing

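Of the tested differences in peak number, 156 of 210 alternatives kept direction and side of the threshold, and of the differences at called regions 199 of 275 did; the causes of the changes were not tested. The untested differences at Zfp36l2 and N4bp1 changed sign in 2 of 76 alternatives for peak number and in 11 of 404 for regions. Genes called in LPSx1 (1 in the main setting) and LPSx2 (2) were 0 and 0 without the lane covariate, with the animal block, with lists as long as deposited, without the lists with duplicates, and in either lane pair. With the stronger 50% of each list LPSx2 gave 1, with peaks over 1 kb from a TSS 1, and with a 25 kb window LPSx1 gave 0. Leaving out 1 animal gave 0 to 2 in LPSx1 and 0 to 2 in LPSx2. Strain calls among genes were 1 without merging. Regions called in LPSx1 (5) and LPSx2 (9) were 3 and 4 without the lane covariate, 0 and 2 without the lists with duplicates, 2 and 5 in lanes 3 and 4, and 0 and 3 as peak present or absent; LPSx2 gave 4 with the stronger 50%. Leaving out 1 animal gave 5 to 6 and 5 to 12. Strain regions (2) were 0 without the lane covariate and with lists as deposited, 1 with the stronger 50%, without the lists with duplicates, in lanes 3 and 4, with a peak in at least 1 library and as present or absent, and 1 to 4 without 1 animal. The Zfp36 region at the inner start site kept its LPSx2 call in all 18 alternatives.

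Signs turned at differences that were not called, and at 1 called difference. Zfp36l1 in LPSx1 gave -0.49 with the stronger 50%, -0.81 in lanes 3 and 4 and -0.59 with 25 kb. In LPSx2 it gave -0.50 with the stronger 50%, -0.29 without merging, -1.0 without the lists with duplicates, -0.17 and -0.12 without animals 3 and 4, -1.75 in lanes 3 and 4 and -0.62 with 25 kb. Zc3h12a in LPSx2 gave -0.75 in lanes 3 and 4. Lists as deposited gave 0.83 and 1.83 for Rc3h1 and 4.51 and 3.33 for Zfp36l2 (LPSx1, then LPSx2). As present or absent, the called Zfp36 region 5.92 kb upstream gave 0.031 in LPSx1. Zfp36 in LPSx1 was called with the stronger 50% (-1.81, adjusted p = 0.0452 by limma).

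With the animal as a replicate block the regions called were 6 and 9, and it changed no other call of a named gene or region than those given beside their results. Over all genes, 493 were called in LPSx1 and 557 in LPSx2. Those counts were 0 and 0 with lists as deposited, 99 and 145 without the lane covariate and 64 and 94 without the lists with duplicates. Leaving out 1 animal gave 195 to 415 and 147 to 565, and the other alternatives reached 816 and 1248. Strain calls (104 genes) ran from 45 to 129 and from 0 to 533, and calls between LPSx2 and LPSx1 (0) from 0 to 2 and from 0 to 350. Strain differences of the response (3 in LPSx1 and 1 in LPSx2) were most in lanes 3 and 4, where C57BL6/J media and LPSx2 hold 1 library each. Over all regions the LPSx1 count of 4692 ran from 1325 to 4449, the LPSx2 count of 5468 from 955 to 5496, and the strain count of 1140 from 58 to 1906. Neither a lane fit nor a 25 kb fit was available for some thinly covered regions, and Elavl1 fell under the filter in several alternatives. Depth limits regions near the end of a list, where no peak and a weak peak cannot be told apart.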
